A study of Mus musculus with 15 samples.

Results

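The genes described here are 41 interferon-stimulated genes, a list of genes long known to be switched on when cells sense interferon. They were chosen by name, but with earlier results of these data known. Each of the 41 symbols matched 1 gene ID among the 46517 genes counted in the RNA-seq libraries, and each passed the filter on low counts that left 18132 genes to test. The study compared kidney samples of newborn C57BL/6 mice (postnatal day 0, P0) with and without Dnmt1, the enzyme that copies cytosine methylation onto newly made DNA strands. Controls (CTL) were Dnmt1 f/f, with floxed alleles and no Cre, and knockouts (KO) were Six2Cre Dnmt1 f/f, with Cre recombinase under the control of Six2. RNA was sequenced from 3 CTL and 3 KO samples. Methylation was measured by reduced representation bisulfite sequencing (RRBS), which covers CpG-rich restriction fragments, in 3 CTL samples, 3 KO samples and 3 wild-type adults of 6 weeks, the last with RRBS only.

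Six2 marks the nephron progenitors of the cap mesenchyme, so that nephron epithelium descends from Cre-expressing cells while stroma, ureteric epithelium, endothelium and blood cells mostly do not. The labels name Six2-positive cells as the source, whereas the extraction protocol names entire kidneys for DNA. The RNA libraries held markers of many kidney cell types: Pecam1 of endothelium had 138 to 208 CPM (counts scaled to a common library total) in controls, the tubule transporter Slc34a1 369 to 1662 CPM, and Six2 itself 44.9 to 97.0 CPM. They are treated as mixed kidney samples. In such samples fewer cells of a type and less RNA per cell cannot be told apart. No label says that replicates came from separate animals, so p-values measure only the spread between these samples, which may be technical.

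Interferons are secreted proteins that bind cell surface receptors coupled to kinases of the JAK family. Type I receptors lead to a complex holding Stat2 and Irf9 that binds the interferon-stimulated response element, a pair of GAAA-like repeats, near its target genes. The targets sense foreign nucleic acid, block translation and viral assembly, mark proteins with Isg15, and widen antigen presentation. Cells make interferon when sensors such as Ifih1 or cGAS meet double-stranded RNA or DNA in the cytosol, and transcripts of endogenous retroviruses are among the ligands known to engage these sensors in cells with little DNA methylation.

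Gene counts totalled 26773937 to 34102567 per RNA library. Dnmt1, the targeted gene, was at 176, 142 and 204 CPM in the controls and at 112, 115 and 92.1 CPM in the KO samples, so that the groups did not overlap. Its log2 fold change was -0.74 (SE 0.12, adjusted p = 0.00577 by edgeR's quasi-likelihood test with Benjamini-Hochberg adjustment over all genes tested, as for every adjusted p on RNA here). KO 2 did not stand apart from the other KO samples in Dnmt1. CPM values are counts divided by the library's total gene count, while fold changes come from the fit with TMM scaling.

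Of the 41 interferon-stimulated genes, 6 were higher in KO at an adjusted p under 0.05 and none was lower. The 6 were Cxcl10, Ifit1, Gbp2, Oas2, Ddx60 and Igtp. They made up 14.6% of the list, against 6.36% of all tested genes called higher and 8.23% called lower. At an unadjusted p under 0.05, 25 were higher (61.0%) and none lower, where 13.0% of all tested genes were higher and 15.0% lower. The fitted log2 fold change was above 0 for 40 of the 41 (49.9% of all tested genes), with a median of 0.77 and a range from -0.18 for Ifit3 to 3.04 for Cxcl10. The median of all tested genes was -0.00074. The number of calls depended on single libraries. Without KO 1, KO 3 or CTL 1 it was 1 each time, Cxcl10, or 2.44% of the list. Of all genes tested in these settings, in the same order, 3.47%, 3.93% and 3.93% were called higher, more than in the list. Without CTL 2 the number was 3 (7.32%, against 5.6% of all tested genes). Without CTL 3 the number was 12 (29.3%, against 13.6%), and without KO 2 it was 15 (36.6%, against 3.97%).

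**Figure D1:**
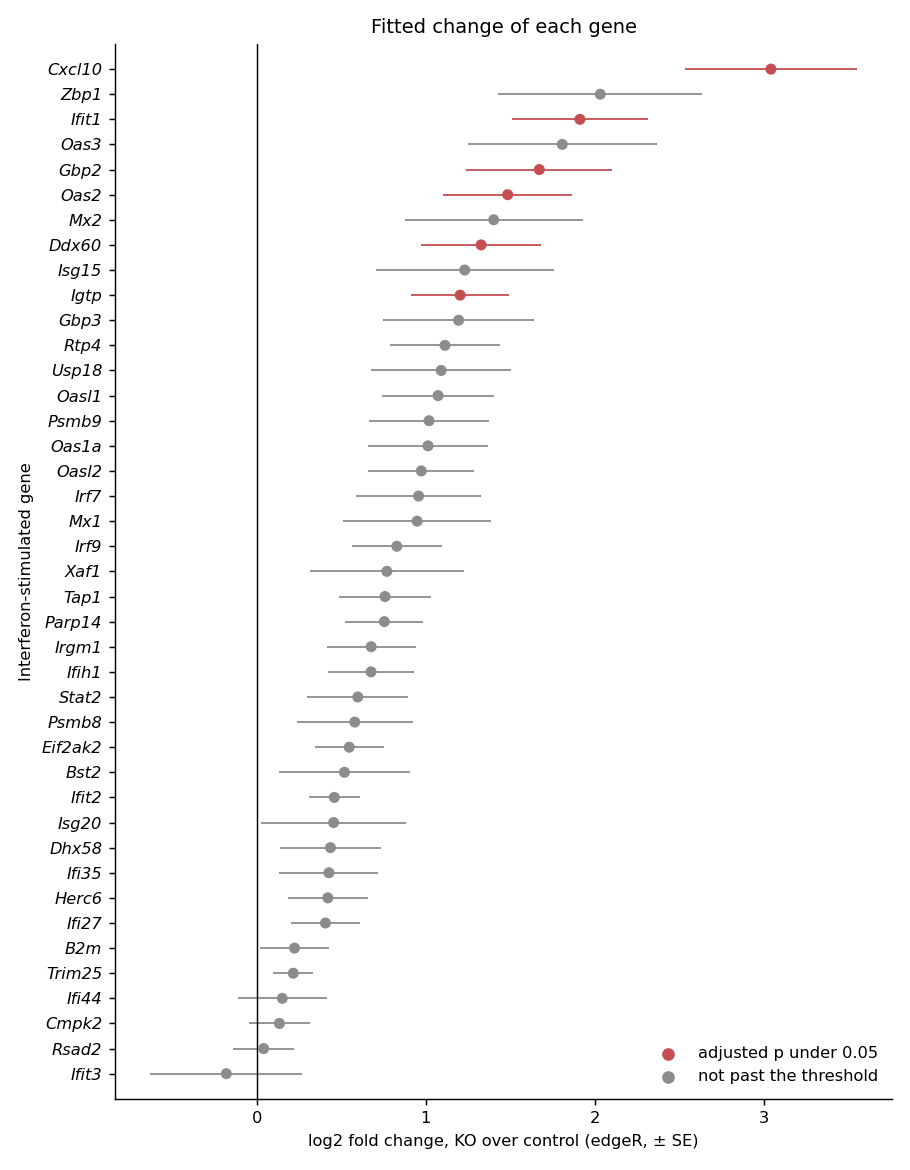
Fitted log2 fold change of KO over control for each of the 41 genes, with bars of 1 SE either side, from 3 KO and 3 CTL libraries; red marks the 6 genes at an adjusted p under 0.05. All points but that of Ifit3 lie above 0, and Cxcl10 lies farthest out at 3.04.

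The KO libraries differed from each other in these genes. Relative to the mean of the controls, the median log2 ratio over the 41 genes was 1.06 in KO 1, 0.23 in KO 2 and 1.01 in KO 3, with 0.1 CPM added to each value. Over all tested genes the same medians were 0.04, 0.06 and -0.03. The controls lay at -0.03, 0.07 and -0.08. KO 1 was above every control for 37 of the 41 genes and KO 3 for 38, where 30.0% and 26.6% of all tested genes were so. KO 2 was above every control for 19, or 46.3%, where 31.4% of all tested genes were so. KO 2 was the lowest of the KO libraries for 39 genes, all but Rsad2 and Eif2ak2, against 22.1% of all tested genes, and it lay within the range of the controls for 21, or 51.2%, close to the 47.5% of all tested genes.

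**Figure D2:**
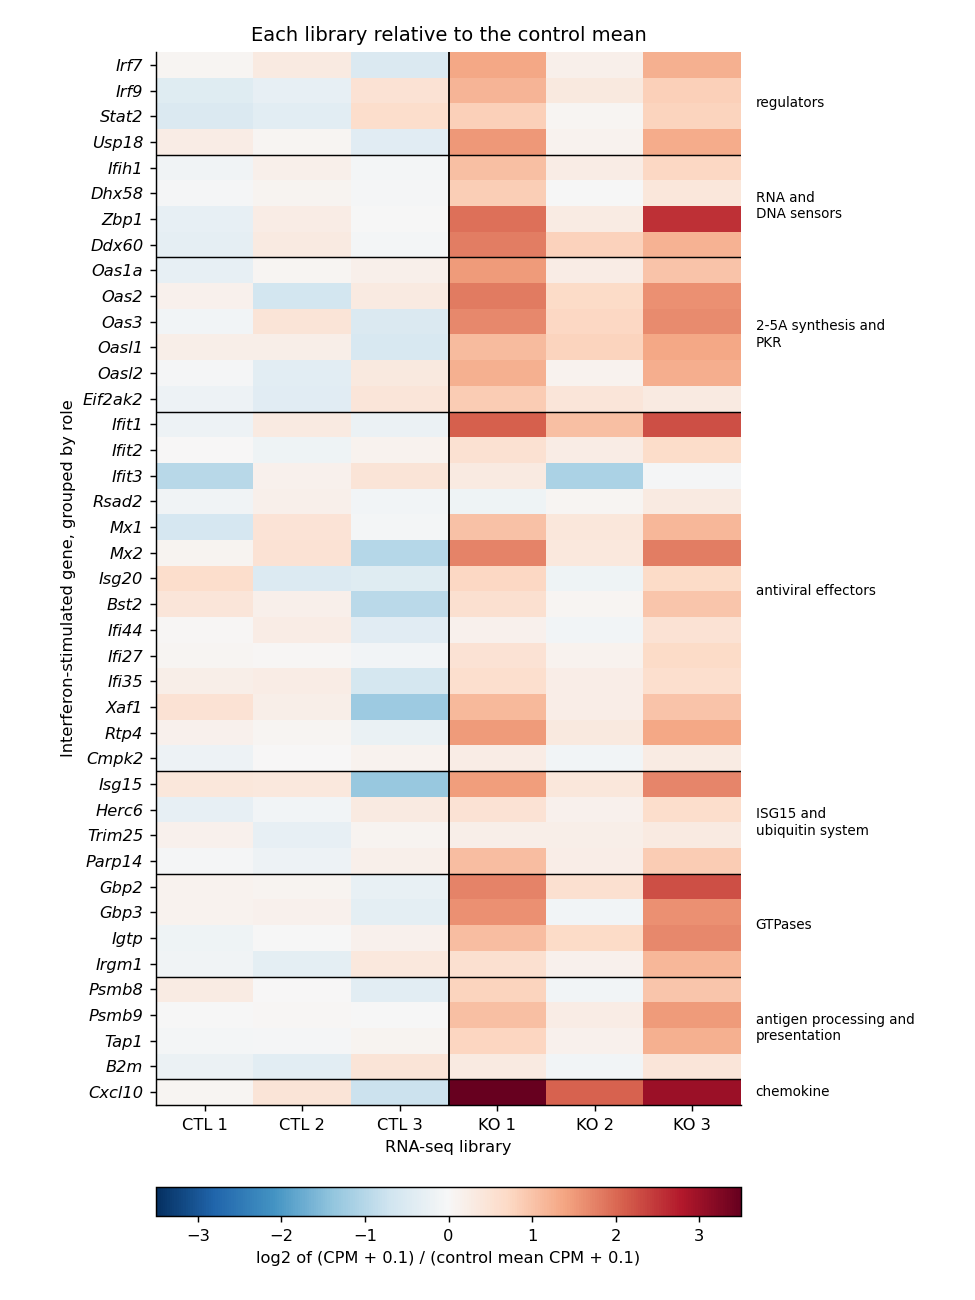
Each of the 41 genes (y axis, grouped by role) in each RNA library (x axis), as the log2 ratio of CPM plus 0.1 to the control mean plus 0.1. KO 1 and KO 3 are red for most genes (medians 1.06 and 1.01), while KO 2 is pale (median 0.23) except in Cxcl10 and a few others.

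In 19 of the 41 genes every KO library was above every control, against 17.4% of all tested genes. In none was every KO library below every control, where 14.6% of all tested genes were. The 19 became 14 when CPM was scaled by TMM, where 16.5% of all tested genes were so separated. They became 16 when mitochondrially encoded genes were taken out of the library totals, where the share of all tested genes rose to 21.3%. Both scalings were chosen after seeing the data. Under TMM scaling Ifih1, Zbp1, Ifi27, Isg15, Trim25 and Tap1 lost their separation and Eif2ak2 gained it, and without mitochondrially encoded genes Zbp1, Ifi27 and Isg15 lost it. Another 17 genes, or 41.5%, had KO 1 and KO 3 above every control and KO 2 not, against 2.56% of all tested genes: Irf7, Irf9, Stat2, Usp18, Dhx58, Oasl2, Mx1, Mx2, Isg20, Bst2, Ifi35, Xaf1, Cmpk2, Herc6, Gbp3, Irgm1 and Psmb8.

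The signals that precede the response were sparse. The 21 interferon genes looked for, of types I, II and III, had 37 reads in all 6 libraries together, and 13 of them had none in any library. They had 2, 6 and 2 reads in the controls and 15, 5 and 7 in the KO libraries. Ifnb1, the interferon many cell types make first, had 0 reads in every library, which allows up to 0.0880 to 0.112 CPM depending on the library (3 counts, counting error only). Of these reads, 7, 1 and 3 in the KO libraries and none in the controls were assigned to Ifna13, one of a cluster of near-identical genes whose reads cannot be split with certainty. None of the 21 reached the filter on low counts.

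Receptors and JAK-STAT components were measured well and none of the 15 passed the test, with a median log2 fold change of -0.03. Among 23 genes of nucleic acid sensing, 21 were tested, 3 were higher and none was lower, with a median of 0.28. Over all tested genes 6.36% were called higher and 8.23% lower. Tlr7, an endosomal receptor for single-stranded RNA, was at 0.654, 0.880 and 0.973 CPM in controls and 2.41, 1.60 and 1.94 CPM in KO (log2 fold change 1.21, SE 0.31, adjusted p = 0.0357). Ifi204, of the family of cytosolic DNA sensors, had a log2 fold change of 1.69 (SE 0.47, adjusted p = 0.0455). In both genes the groups did not overlap.

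Of the regulators of the response, Irf7, Irf9, Stat2 and Usp18, none passed the test. Their log2 fold changes ran from 0.60 for Stat2 to 1.09 for Usp18, which removes Isg15 from proteins and damps receptor signalling. Irf7, the factor that amplifies type I interferon production, was at 10.8, 12.8 and 7.25 CPM in controls and 26.3, 11.6 and 24.5 CPM in KO (log2 fold change 0.96, SE 0.37, adjusted p = 0.13). Irf9, the DNA-binding part of the complex with Stat2, was at 16.7, 18.4 and 31.8 CPM in controls and 51.4, 28.4 and 39.9 CPM in KO (log2 fold change 0.83, SE 0.26, adjusted p = 0.0758). KO 2 lay inside the control range for all 4.

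Among the 4 sensors, Ddx60, a helicase that promotes RNA sensing, rose. It was at 1.25, 1.96 and 1.47 CPM in controls and at 5.61, 2.79 and 3.77 CPM in KO, or 1.56 ± 0.366 against 4.06 ± 1.43 CPM (mean ± SD, n = 3 each). All KO libraries were above all controls (log2 fold change 1.33, SE 0.36, adjusted p = 0.0422). Zbp1, a sensor of Z-form nucleic acid that can trigger necroptosis, was at 0.357, 0.557 and 0.442 CPM in controls and 1.997, 0.578 and 3.14 CPM in KO. Its log2 fold change of 2.03 was the second largest of the list, but its SE was 0.60 and its adjusted p 0.0592, and KO 2 lay barely above the highest control, by library size alone and not under the 2 other scalings. Ifih1, the MDA5 sensor of long double-stranded RNA, was at 6.86, 8.47 and 7.08 CPM in controls and 15.5, 9.02 and 12.4 CPM in KO (log2 fold change 0.68, SE 0.25, adjusted p = 0.122), without overlap by library size but not under TMM scaling. Dhx58, a partner of MDA5, had a log2 fold change of 0.44 (SE 0.30, adjusted p = 0.405).

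Of the next 6 genes, 5 belong to the 2′-5′ oligoadenylate synthetase family, whose active members make the second messenger 2-5A on meeting double-stranded RNA. Oas2 rose, from 1.93, 1.06 and 2.15 CPM to 6.34, 2.79 and 5.38 CPM, or 1.71 ± 0.580 against 4.84 ± 1.84 CPM (SD, n = 3 each; log2 fold change 1.48, SE 0.38, adjusted p = 0.0353). Oas3 was rarer, at 0.149, 0.264 and 0.0885 CPM in controls and 0.761, 0.340 and 0.747 CPM in KO (log2 fold change 1.81, SE 0.56, adjusted p = 0.0677). Neither gene overlapped between groups. Oas1a was at 1.54, 1.99 and 2.15 CPM and at 5.52, 2.31 and 3.92 CPM (log2 fold change 1.01, adjusted p = 0.101), and may share reads with its near-identical neighbour Oas1g. Oasl1, which carries ubiquitin-like domains and restrains translation of Irf7, was at 3.36, 3.34 and 1.92 CPM in controls and 6.34, 4.97 and 7.54 CPM in KO (log2 fold change 1.07, SE 0.33, adjusted p = 0.0694). Both were separated by group but did not pass the test. Oasl2 (log2 fold change 0.97, adjusted p = 0.0767) and Eif2ak2, the kinase PKR that halts translation on double-stranded RNA (log2 fold change 0.55, adjusted p = 0.119), had overlapping groups.

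The 14 other antiviral effectors were the most uneven class, with a median log2 fold change of 0.46. Only Ifit1, which binds RNA lacking the cap mark of the host, passed the test. It was at 1.25, 1.82 and 1.24 CPM in controls and 6.44, 3.06 and 7.25 CPM in KO, or 1.43 ± 0.332 against 5.58 ± 2.22 CPM (SD, n = 3 each; log2 fold change 1.91, SE 0.40, adjusted p = 0.0159). Its neighbours on chromosome 19 had smaller differences. Ifit2 was at 20.9, 18.8 and 22.5 CPM in controls and 29.8, 24.9 and 32.6 CPM in KO, without overlap (log2 fold change 0.46, SE 0.15, adjusted p = 0.0819). Ifit3 was at 3.15, 7.01 and 8.61 CPM in controls and 7.86, 2.82 and 6.13 CPM in KO, with fully mixed groups (log2 fold change -0.18, SE 0.45, adjusted p = 0.848), and shares near-identical sequence with Ifit3b. Reads from Ifit1 may include some from Ifit1bl1, whose annotated span overlaps it.

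Some classic effectors had log2 fold changes near 0. Rsad2, the radical SAM enzyme viperin, was at 46.5, 57.6 and 47.8 CPM in controls and 45.6, 53.1 and 62.7 CPM in KO (log2 fold change 0.04, SE 0.18, adjusted p = 0.92). Cmpk2, a nucleotide kinase encoded beside Rsad2 on chromosome 12, was at 12.4, 14.3 and 15.4 CPM and at 16.8, 13.2 and 17.3 CPM (log2 fold change 0.13, SE 0.18, adjusted p = 0.702). Ifi44 was at 16.5, 19.1 and 12.2 CPM and at 17.6, 14.9 and 22.6 CPM (log2 fold change 0.15, SE 0.26, adjusted p = 0.777). In these 3 genes the groups overlapped, and KO 2 was below at least 1 control in each. Mx1 and Mx2, genes of the dynamin-like GTPase family, had log2 fold changes of 0.95 (SE 0.44, adjusted p = 0.201) and 1.40 (SE 0.53, adjusted p = 0.122). Mx2 had values of 2.38, 3.17 and 1.06 CPM in controls and 7.58, 2.89 and 7.84 CPM in KO, so that only KO 2 met the controls.

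Rtp4, an inhibitor of viral replication, and Ifi27 were the other effectors without overlap, Ifi27 by library size alone and not under the 2 other scalings. Rtp4 was at 7.01, 6.60 and 5.31 CPM in controls and 17.8, 8.03 and 16.4 CPM in KO (log2 fold change 1.11, SE 0.33, adjusted p = 0.0574). Its annotated span overlaps Masp1. Ifi27 was at 13.6, 13.2 and 12.0 CPM and at 18.4, 14.0 and 20.5 CPM (log2 fold change 0.41, SE 0.21, adjusted p = 0.247). Isg20, Bst2 (tetherin, which holds budding virus on the cell), Ifi35 and Xaf1 had log2 fold changes from 0.43 to 0.77 with adjusted p from 0.329 to 0.563, and in each the groups overlapped.

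Isg15, the ubiquitin-like protein that is attached to other proteins in the response, was at 7.10, 7.01 and 2.09 CPM in controls and 14.9, 7.18 and 17.8 CPM in KO. KO 2 exceeded the highest control only slightly, and CTL 3 was the lowest of the controls (log2 fold change 1.23, SE 0.53, adjusted p = 0.17). Parp14, an ADP-ribosyltransferase grouped here with the ubiquitin system, was at 10.9, 9.88 and 12.5 CPM in controls and 23.6, 13.1 and 20.5 CPM in KO (log2 fold change 0.75, SE 0.23, adjusted p = 0.0667). Trim25, a ubiquitin ligase known to act on the sensor RIG-I, was abundant in every library, at 85.2, 63.8 and 83.4 CPM and at 89.9, 89.3 and 96.3 CPM (log2 fold change 0.22, SE 0.12, adjusted p = 0.288). These 3 genes had no overlap in CPM by library size, though Isg15 and Trim25 overlapped under TMM scaling, and none passed the test. Herc6, the ligase that attaches Isg15 in mice, had a log2 fold change of 0.42 (SE 0.24, adjusted p = 0.303).

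Of the 4 interferon-inducible GTPases, which attack vacuoles holding intracellular pathogens and respond to interferon-gamma in particular, 2 rose. Gbp2 was at 2.88, 2.82 and 2.18 CPM in controls and 9.04, 3.95 and 12.8 CPM in KO, or 2.63 ± 0.386 against 8.60 ± 4.45 CPM (SD, n = 3 each; log2 fold change 1.67, SE 0.43, adjusted p = 0.036). Igtp was at 4.31, 4.75 and 5.28 CPM and at 10.2, 7.72 and 15.7 CPM, or 4.78 ± 0.485 against 11.2 ± 4.07 CPM (SD, n = 3 each; log2 fold change 1.20, SE 0.29, adjusted p = 0.028). Neither overlapped between groups, and KO 2 was the lowest KO library in both. Gbp3 was at 6.06, 6.13 and 4.33 CPM in controls and at 17.0, 5.10 and 16.9 CPM in KO, with KO 2 among the controls (log2 fold change 1.19, SE 0.45, adjusted p = 0.122). Irgm1 had a log2 fold change of 0.68 (SE 0.26, adjusted p = 0.135).

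Related genes outside the list were counted in the same way. Of 44 other interferon-induced genes looked for, 37 were tested, 4 were higher and none lower, with a median log2 fold change of 0.40. For comparison, 6.36% of all tested genes were called higher and 8.23% lower. They were the GTPases Gbp6 (2.87, SE 0.73, adjusted p = 0.0341), Gbp7 (1.45, SE 0.33, adjusted p = 0.0208) and Ifi47 (1.94, SE 0.50, adjusted p = 0.0364), and Slfn2, a Schlafen protein (1.80, SE 0.34, adjusted p = 0.00999). Gbp6 was at 0.297, 0.674 and 0.236 CPM in controls and 4.18, 0.748 and 4.30 CPM in KO. KO 2 was again close to the controls. Genes of the Gbp cluster on chromosome 3 and of its neighbours on chromosome 5 are alike enough that reads may be shared between them.

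The 4 genes of antigen processing on the list did not pass the test. Psmb9, an immunoproteasome subunit, was at 2.23, 2.35 and 2.24 CPM in controls and 4.85, 2.72 and 6.57 CPM in KO (log2 fold change 1.02, SE 0.35, adjusted p = 0.0972). Tap1, which carries peptides into the endoplasmic reticulum and is transcribed from the same intergenic stretch as Psmb9, was at 12.3, 12.7 and 13.9 CPM and at 21.9, 14.4 and 30.6 CPM (log2 fold change 0.76, SE 0.27, adjusted p = 0.105). Both were free of overlap by library size, but Tap1 was not under TMM scaling. Psmb8 (log2 fold change 0.58, SE 0.34, adjusted p = 0.328) and B2m, the light chain of class I molecules (log2 fold change 0.22, SE 0.20, adjusted p = 0.546), were not. Of 11 class I partners looked for, 1 passed the test: the heavy chain H2-K1, at 57.2, 58.9 and 68.8 CPM in controls and 114, 84.7 and 126 CPM in KO (log2 fold change 0.78, SE 0.16, adjusted p = 0.0162). None of the 11 was lower, and their median was 0.10, where 6.36% of all tested genes were called higher and 8.23% lower.

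Cxcl10, a chemokine that draws activated T cells and natural killer cells, had the largest change of the 41. It was at 0.802, 1.08 and 0.413 CPM in controls and 9.54, 3.50 and 6.80 CPM in KO, or 0.767 ± 0.338 against 6.61 ± 3.02 CPM (SD, n = 3 each). Every KO library, KO 2 included, was well above every control. The log2 fold change was 3.04 (SE 0.51, adjusted p = 0.00569). It was the only gene of the list to pass under each alternative processing tried. On GRCm38 Cxcl10 (ENSMUSG00000034855.12) spans chromosome 5 from 92346638 to 92348889 and lies within the span of Art3. Strandedness of the counting was not given in the sources used here, so reads of overlapping genes cannot be told apart. The spans of the other genes that rose, on the same build, are 34640889 to 34650009 of chromosome 19 for Ifit1, 142620663 to 142638008 of chromosome 3 for Gbp2 and 120730333 to 120749886 of chromosome 5 for Oas2. Ddx60 spans 61928073 to 62037704 of chromosome 8, and Igtp 58199556 to 58207592 of chromosome 11.

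**Figure D3:**
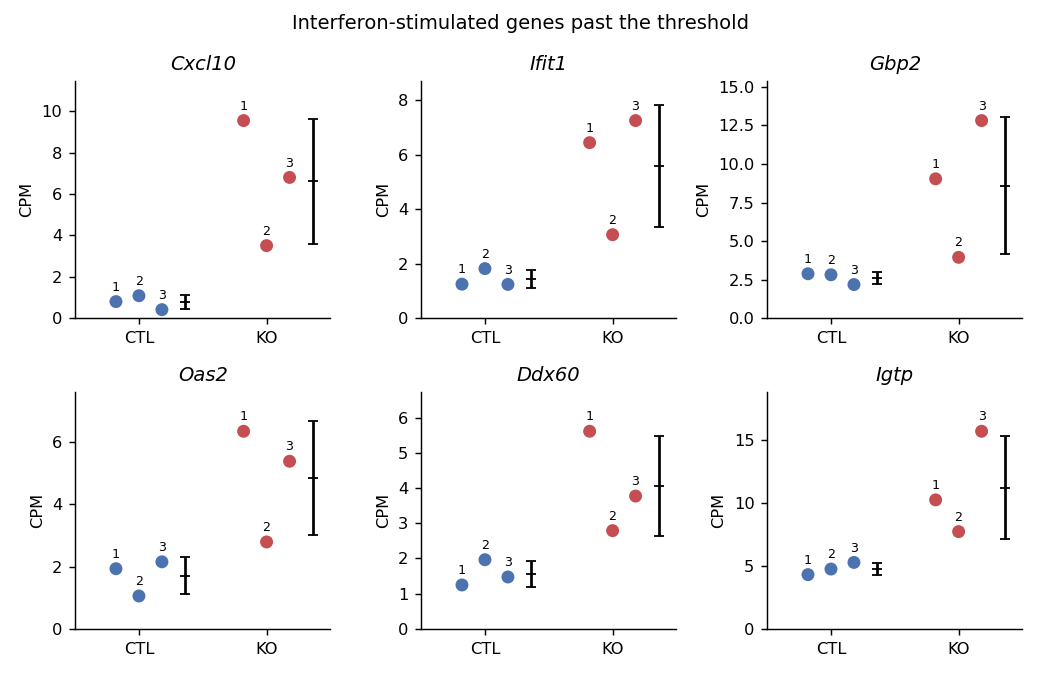
CPM in each of the 3 CTL and 3 KO libraries (points) with the group mean and SD for the 6 genes at an adjusted p under 0.05, each on its own axis from 0. In each panel every KO point is above every CTL point, as in Cxcl10 with 0.413 to 1.08 against 3.50 to 9.54 CPM.

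Promoters are shown for 6 of the named genes, to show the response element where it was found. RefSeq gene starts on GRCm38.p6 were found for 32 of the 41. The response element, searched as GAAA, any 2 bases and GAAA again on both strands from 250 bases before to 50 bases after the start, was found in 17 of these 32 genes, or 53.1%, against 3.99% of the 27025 genes with a promoter in the table. TTCNNNGAA, the form bound by Stat dimers and also searched on both strands, was found in 8 of the 32, or 25.0%, against 9.55%. In 1 promoter matches of both overlapped. A match describes letters only and is not evidence of binding. The 6 are the named genes with a match to the response element and the largest fold changes, given as the 250 bases before the start on the gene's own strand, with matches in capitals on either strand.
Cxcl10, chr5:92348890-92349139, minus strand: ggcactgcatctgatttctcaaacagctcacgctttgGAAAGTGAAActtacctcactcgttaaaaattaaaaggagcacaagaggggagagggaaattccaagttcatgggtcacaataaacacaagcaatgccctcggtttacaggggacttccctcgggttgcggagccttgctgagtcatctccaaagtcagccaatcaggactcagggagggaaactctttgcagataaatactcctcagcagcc
Ifit1, chr19:34640639-34640888, plus strand: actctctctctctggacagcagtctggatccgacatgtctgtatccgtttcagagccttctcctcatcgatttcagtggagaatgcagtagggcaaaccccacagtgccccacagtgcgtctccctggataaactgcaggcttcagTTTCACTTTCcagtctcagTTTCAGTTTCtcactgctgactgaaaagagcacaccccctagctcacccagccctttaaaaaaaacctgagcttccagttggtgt
Oas3, chr5:120777660-120777909, minus strand: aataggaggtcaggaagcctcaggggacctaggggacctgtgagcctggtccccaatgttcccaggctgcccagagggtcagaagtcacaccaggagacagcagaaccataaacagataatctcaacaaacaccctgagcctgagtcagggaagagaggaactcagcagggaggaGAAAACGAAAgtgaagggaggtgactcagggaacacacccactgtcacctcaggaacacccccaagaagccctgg
Gbp2, chr3:142620413-142620662, plus strand: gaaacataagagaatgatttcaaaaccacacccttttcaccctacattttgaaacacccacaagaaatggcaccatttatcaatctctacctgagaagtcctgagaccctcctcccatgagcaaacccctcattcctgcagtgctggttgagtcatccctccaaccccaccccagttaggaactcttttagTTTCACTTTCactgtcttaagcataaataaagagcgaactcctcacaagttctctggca
Ddx60, chr8:61927837-61928086, plus strand: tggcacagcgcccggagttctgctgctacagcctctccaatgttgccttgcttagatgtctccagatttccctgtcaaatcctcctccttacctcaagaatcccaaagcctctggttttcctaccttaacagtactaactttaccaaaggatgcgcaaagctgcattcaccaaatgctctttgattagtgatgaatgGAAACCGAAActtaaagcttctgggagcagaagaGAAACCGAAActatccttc
Isg15, chr4:156200819-156201068, minus strand: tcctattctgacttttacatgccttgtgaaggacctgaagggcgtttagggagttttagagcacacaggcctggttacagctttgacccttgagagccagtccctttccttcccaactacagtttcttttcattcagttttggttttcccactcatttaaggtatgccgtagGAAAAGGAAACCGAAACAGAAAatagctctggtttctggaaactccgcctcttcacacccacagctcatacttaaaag

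The match of Cxcl10 lies farthest upstream of the 6, from 213 to 204 bases before the start. That of Oas3 lies 75 to 66 bases before its start and that of Gbp2 59 to 50 bases. Ifit1 has 2 matches between 104 and 76 bases before the start, and Ddx60 2 between 53 and 10 bases. The Ddx60 start used here, 61928087, lies inside the gene span given above, and the match nearer to it overlaps that span. Isg15 has 3 overlapping matches in 1 run, from 78 to 57 bases before the start. Of the 17 genes with a match, 5 were higher in KO, 9 had no overlap between groups, and the median log2 fold change was 1.01. Of the 15 genes without a match, none was higher, 5 had no overlap, and the median was 0.58. Over all tested genes 6.36% were called higher, and 17.4% had every KO library above every control. At such shares few or no calls would be usual in a set of 15. The difference between these sets was not tested. Ifit3 and Rsad2 hold a match and had fold changes near 0. Oas2, the sixth of the genes that rose, had no start in the table.

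Methylation was then compared at the gene starts. A window took in 1000 bases to each side of a start, and its level was the share of methylated calls among all calls in it, tested where each of the 6 newborn libraries had at least 20 calls. The 32 genes gave 37 windows, of which 20, in 18 genes, could be tested. Among these 20, 1 was lower in KO at an adjusted p under 0.05 and none was higher, where 9.25% of 18078 windows of all genes were lower and 0.138% higher. The median difference was -0.816 percentage points over the 20 windows and -0.266 over all windows. Most starts were little methylated: control means were under 5% in 13 of the 20 windows, and in 66.3% of all windows. Of the 6 genes with higher RNA, only Cxcl10 and Igtp had a tested window.

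The start of Oasl1 (chromosome 5, 114923240) was the window that lost methylation. Its level was 27.3%, 22.97% and 23.5% in controls and 8.91%, 9.07% and 8.75% in KO, with 263 to 1332 calls per library. The means were 24.6% ± 2.36 and 8.91% ± 0.160 (SD, n = 3 each), a difference of -15.7 points (adjusted p = 0.00283 by edgeR's quasi-likelihood test on methylated and unmethylated calls). The KO libraries were close together here. Adults had 14.8% ± 2.70 (SD, n = 3), between the newborn groups.

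Other windows with intermediate methylation did not pass the test. At the first start of Irf9 (chromosome 14, 55603985) levels were 31.5%, 28.1% and 28.2% in controls and 15.1%, 13.8% and 19.2% in KO, a difference of -13.2 points (adjusted p = 0.0661). A second start of Irf9, in an overlapping window, had means of 19.5% and 12.3% (adjusted p = 0.298). At Igtp (chromosome 11, 58199556) levels were 49.3%, 57.7% and 61.6% in controls and 44.7%, 31.7% and 43.1% in KO, a difference of -16.3 points with an adjusted p of 0.197. None of these windows overlapped between groups. Among the 20 tested windows, 6 had every KO library below every control: Oasl1, Igtp, Trim25, B2m and both starts of Irf9. In 1, at Ifih1, every KO library was above every control. The share of all windows without overlap was not counted, so these numbers have no background beside them. Among windows of all genes with control means from 20% to 60%, the median difference was -9.34 points and 8.12% were called lower. The 4 windows of listed genes in that range had a median of -14.4 points.

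Cxcl10, with the largest rise in RNA, did not show a separated difference at its start. Levels were 28.8%, 22.2% and 12.1% in controls and 13.0%, 20.4% and 13.0% in KO, with 100 to 374 calls per library (difference -5.57 points, adjusted p = 0.677). The adults were lower than every newborn library, at 7.89%, 4.89% and 5.41%. With 2000 bases to each side the Cxcl10 window passed, with means of 64.7% in controls and 40.2% in KO (adjusted p = 0.0147), so that the call there depends on the width taken. Trim25 went from 18.5% to 14.3% (adjusted p = 0.647), and Bst2 from 17.9% to 16.7% (adjusted p = 0.936). The windows of Psmb9 and Tap1 overlap, and both means were under 5% in both groups.

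**Figure D4:**
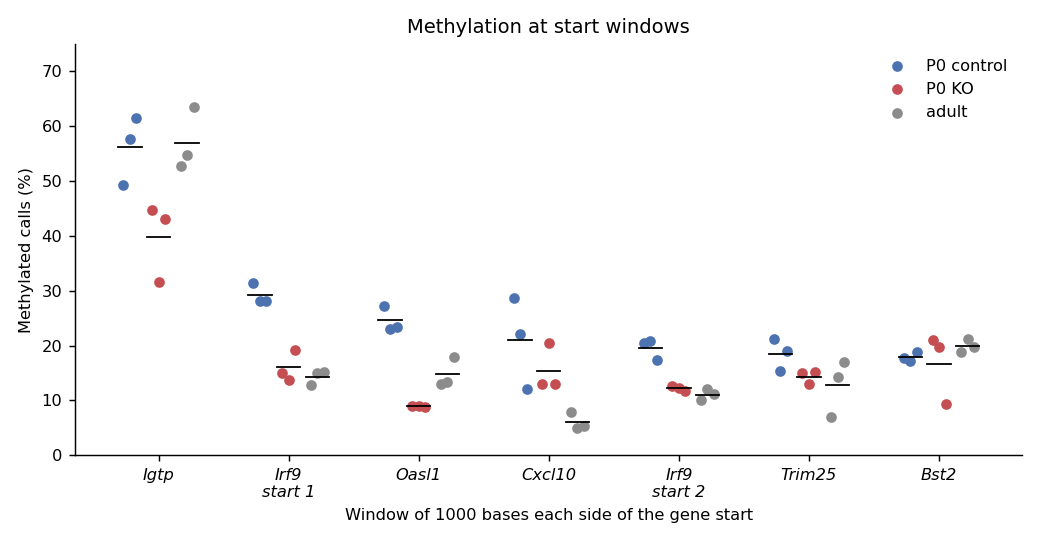
Methylated calls (%) in the windows around 7 starts of listed genes, those tested with a control mean of 5% or more, in P0 controls, P0 KO and adults (3 points each, bars at the mean). Oasl1 separates most cleanly, with 22.97% to 27.3% in controls and 8.75% to 9.07% in KO, while Cxcl10 overlaps.

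Markers of other cells moved with the list in part. Of 19 macrophage and leukocyte markers, 15 were tested, 3 were higher and none lower, where 6.36% of all tested genes were called higher and 8.23% lower. C1qa, a complement component of tissue macrophages, was at 13.1, 15.7 and 13.9 CPM in controls and 37.5, 23.1 and 36.3 CPM in KO (log2 fold change 1.14, SE 0.23, adjusted p = 0.013). Ptprc (0.79, SE 0.20, adjusted p = 0.033) and Aif1 (1.24, SE 0.34, adjusted p = 0.0461) were the others. The summed level of the 19 was 133, 165 and 168 CPM in controls and 236, 148 and 237 CPM in KO, so that KO 1 and KO 3 were high and KO 2 lay within the controls, the order seen in the interferon-stimulated genes. Csf1r, the receptor macrophages depend on, did not follow: it was at 29.7, 30.2 and 55.0 CPM in controls and 29.0, 20.6 and 28.0 CPM in KO. No marker was at 0 in every library, but Cd3e of T cells and Ncr1 of natural killer cells had 0 to 3 reads each per library.

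Markers of other kidney cells differed between the groups as well. All 6 proximal tubule markers and all 5 podocyte markers were lower in KO (median log2 fold changes -3.15 and -1.98), and 5 of 8 endothelial markers were lower. Of the stromal markers 3 of 6 were higher, and of the collecting duct and ureteric markers 3 of 6 were higher. Of the 5 nephron progenitor markers 2 were higher and 1 was lower. The shares over all tested genes were 6.36% higher and 8.23% lower. Mitochondrially encoded genes took 4.60%, 13.1% and 4.25% of gene counts in controls and 11.3%, 7.81% and 11.8% in KO. The median log2 ratio over the 41 genes, in the same library order, was -0.03, 0.07 and -0.08 in controls. In KO it was 1.06, 0.23 and 1.01. The part of leukocyte number, cell makeup and library quality in the levels of the 41 genes was not tested.

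**Figure D5:**
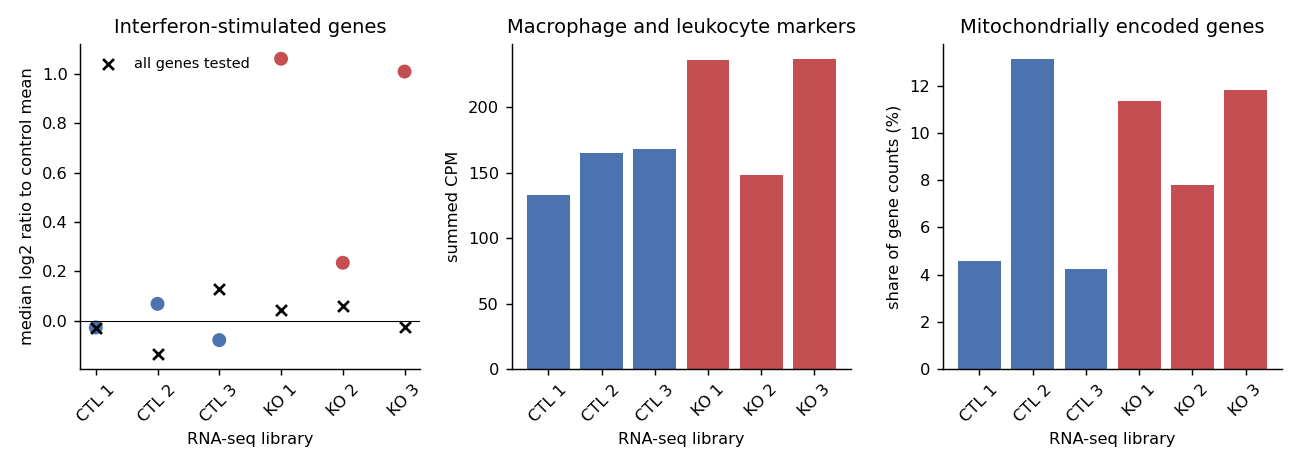
For each RNA library, the median log2 ratio of the 41 genes to the control mean with that of all tested genes (left), the summed CPM of 19 macrophage and leukocyte markers (middle) and the share of gene counts from mitochondrially encoded genes (right). KO 1 and KO 3 are high in the first panel and in the second (236 and 237 CPM), and KO 2 is not (148 CPM). In the third, CTL 2 is highest at 13.1%, and KO 1, KO 2 and KO 3 have 11.3%, 7.81% and 11.8%.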

How the data were processed

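RNA-seq came from 3 CTL and 3 KO newborn samples and RRBS from 3 CTL, 3 KO and 3 adult samples. Per the labels, RNA was extracted with an RNeasy kit and poly(A) libraries were made with an Illumina TruSeq kit. The submitters' processing notes name STAR 2.4.1d, HTSeq 0.6.1, Trim Galore, Bismark and builds mm10 and GRCm38. The deposited RNA files hold raw read counts per gene, with unassigned classes in separate lines that were left out of totals and tests. The deposited RRBS files hold, per position, a methylation percent and the counts of methylated and unmethylated calls; the calls were used.

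Genes were tested with edgeR 4.0.16 (quasi-likelihood, TMM, filterByExpr) in R 4.3.3, for 3 KO against 3 CTL, with Benjamini-Hochberg adjustment over 18132 genes and a threshold of 0.05. Start windows were tested with edgeR on methylated and unmethylated calls over 18078 windows. Calls per RRBS library ran from 18424875 to 88765177. An exact permutation test of 3 against 3 cannot go below 0.1 and was not used. Intervals and floors cover counting error only. Both fits were tested on simulated data, where the spread of simulated methylation was taken from the control libraries after a first simulation with another spread recovered no changed windows.

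The members and the lists were chosen with earlier results of these data known. Named genes were those past the threshold, those whose groups did not overlap, and those with the 5 highest or 5 lowest fold changes at a mean log2 CPM of at least 0. Other genes are given by range or as short values, and those with values outside this rule were chosen after the values were seen. Alternatives were a replicate block, DESeq2 1.42.0, and voom of limma 3.58.1 with a quality weight per library (called voom below). Other scalings, filters, window widths and call minimums were also run, and each library was left out in turn. The labels do not say what the replicate numbers mean, and the main tests did not use them to pair CTL with KO samples. Some items of the lists are not reported here.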

Additional observations from a re-analysis of the deposited data

How the results depend on the processing

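The count of 6 listed genes higher in KO became 1 at an adjusted p under 0.01 (Cxcl10), 19 with DESeq2, 12 with no filter on low counts, 8 with library size alone, and 6 with voom, with DESeq2 size factors and with a minimum of 10 counts. In the same order, these were 2.44%, 46.3%, 29.3%, 19.5%, 14.6%, 14.6% and 15.0% of the listed genes tested. The shares of all tested genes called higher were 2.91%, 8.9%, 4.6%, 6.07%, 13.5%, 6.49% and 4.2%. At the stricter p the list was thus below all tested genes, and with voom close to them. The voom calls were Irf9, Ddx60, Eif2ak2, Ifit1, Igtp and Cxcl10, so that 4 were shared. Leaving out 1 library gave 1 to 15 (2.44% to 36.6%), where 3.47% to 13.6% of all tested genes were called higher. No listed gene was lower under any of these settings. The median log2 fold change of the list ran from 0.57 with voom to 1.01 without KO 2. Genes of the whole table called higher went from 1153 to 528 at the stricter p, 2442 with voom, 678 with the minimum of 10 counts and 647 to 2512 with 1 library left out. Those called lower went from 1493 to 681, 2595 with voom and 701 to 2561 with 1 library left out. With the replicate number as a block, 4 listed genes (9.76%) were higher: Oas2, Ifit1, Igtp and Cxcl10. In all, 798 genes (4.4%) were higher and 1005 lower, and the same window, Oasl1, was lower. Same-numbered CTL and KO samples did not deviate together (correlations of -0.24, -0.07 and -0.12 in RNA, and 0.0031, -0.010 and 0.045 in windows). Such correlations cannot show what the design was, and the labels do not say whether the numbers pair samples.

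Fitted differences near 0 changed sign. With voom the log2 fold change of Rsad2 was -0.023 and that of Ifi44 -0.090. With 1 library left out Rsad2 ran from -0.11 (without KO 3) to 0.21, Ifi44 from -0.062 (without CTL 3) to 0.37 and Ifit3 from -0.50 to 0.14 (without KO 2). The cause was not tested. With 2000 bases to each side of the start, 5 of 26 tested windows of listed genes were lower (Cxcl10, Oasl1, Irf9 and both starts of Gbp3). Their median difference over the 26 was -2.86 points. The calls rose among all genes too: 3166 of 20376 windows were lower at this width, with a median difference of -0.799 points. With 1 library left out, 1 to 3 windows were lower, the 3 without KO 3 being Oasl1, Irf9 and Gbp3. Without KO 3, 22 windows of listed genes were tested, and 1846 of 18888 windows of all genes were lower. Oasl1 was lower in each setting run. KO 3 had the lowest RRBS depth, and 17 of the 37 start windows were too thinly covered to test.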

Other observations

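Some start windows with fewer calls than the test required had low values in KO, and they are given here as values chosen after they were seen. At the start of Isg15 (chromosome 4, 156200818) methylation was 77.8% of 36 calls, 82.8% of 58 and 66.7% of 9 in controls, against 27.3% of 22, 2.78% of 36 and 22.2% of 9 in KO. Adults had 66.7% of 39 calls, 80.0% of 30 and 61.5% of 26. At the start of Oasl2 (chromosome 5, 114896934) it was 69.2% of 26 calls, 83.6% of 55 and 100% of 7 in controls, against 61.9% of 42, 44.0% of 25 and 46.7% of 15 in KO. In both windows every KO library was below every control, and neither window was tested. Their control means, 75.7% and 84.3%, fall in the range of 60% or more, where 61.6% of the tested windows of all genes were lower in KO and the median difference was -23.7 points. Other thinly covered windows had higher means in KO with overlapping groups: the difference was 5.75 points at Rsad2, 6.30 at Ddx60 and 7.26 at the first start of Isg20. KO 2 had the lowest Isg15 methylation of the KO libraries in RRBS and the lowest Isg15 RNA of the KO libraries in RNA-seq. The labels do not say whether equally numbered RNA and RRBS samples share an animal.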
